A study of Mus musculus with 13 samples.

Results

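Nr4a1, Nr4a2 and Nr4a3 encode the 3 members of a family of orphan nuclear receptors, and Egr1, Egr2 and Egr3 encode zinc finger transcription factors of the early growth response family. These 6 genes were chosen by symbol, with earlier results of these data known, from the 17849 genes of an RNA-seq count table. All 6 were in the table and abundant enough to test. The cells were double-positive thymocytes, sorted for both CD4 and CD8, the 2 coreceptors that developing T cells carry together before they choose one. The first group was knockout (KO) for Rad21, whose protein forms part of the cohesin ring that folds chromosomes into loops, and the other cells were wild type (WT), with 2 libraries of total RNA depleted of ribosomal RNA in each group. The labels of these 4 libraries give neither the strain, the age or sex of the mice, the means of deletion nor a treatment, and do not say whether the 2 libraries of a group came from different mice, so a p-value here reflects only the spread between these libraries, which may be technical. The series also holds wild type ChIP-seq libraries for Rad21, NIPBL and Med1, with inputs, and Hi-C libraries. Those were not analysed here.

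Both families belong to the immediate early genes, which are transcribed within minutes of a signal because the factors that switch them on are already present. In thymocytes the signal comes from the T cell receptor: calcium and calcineurin act through NFAT and MEF2 factors, the Ras and ERK kinases through SRF and its ETS partners, and CREB family factors bind cAMP response elements (CREs). NR4A proteins are active without a known natural ligand and bind a single receptor half-site next to an A-rich stretch. NR4A1 (Nur77) is widely used as a reporter of T cell receptor signal strength and takes part in negative selection, while EGR proteins bind GC-rich sites, promote positive selection and are held in check by the NAB corepressors.

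The promoters of the Nr4a genes share a sequence feature, shown here because these genes moved together in the RNA-seq. RefSeq windows of 250 bases before an annotated start (GRCm38.p6) were examined for 4 of the 6 genes, Nr4a1, Nr4a2, Nr4a3 and Egr2. Windows of Egr1 and Egr3 were not examined here, so Egr2 alone stands for its family. Capitals mark 2 motifs searched on both strands: the CRE half-site, TGACG, which is also part of the full CRE, TGACGTCA, and the CArG box, to which SRF binds. The Nr4a1 window lies at chr15:101266596-101266845 on the plus strand and the Nr4a2 window at chr2:57124004-57124253 on the minus strand. For Nr4a3 and for Egr2, which has 5 annotated starts, short stretches are shown, 31 bases at chr4:48045074-48045104 and 30 bases at chr10:67537789-67537818, both on the plus strand.
Nr4a1: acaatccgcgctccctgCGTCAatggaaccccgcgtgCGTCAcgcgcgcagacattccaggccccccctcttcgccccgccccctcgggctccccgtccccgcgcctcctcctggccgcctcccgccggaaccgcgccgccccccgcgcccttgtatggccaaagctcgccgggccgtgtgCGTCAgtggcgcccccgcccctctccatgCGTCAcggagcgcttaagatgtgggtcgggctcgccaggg
Nr4a2: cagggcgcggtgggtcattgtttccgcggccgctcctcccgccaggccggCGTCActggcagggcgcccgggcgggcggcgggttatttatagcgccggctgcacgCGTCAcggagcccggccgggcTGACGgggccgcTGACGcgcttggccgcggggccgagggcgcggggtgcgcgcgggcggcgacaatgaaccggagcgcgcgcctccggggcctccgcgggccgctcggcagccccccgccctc
Nr4a3: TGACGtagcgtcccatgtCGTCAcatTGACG
Egr2: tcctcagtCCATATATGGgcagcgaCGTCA
The windows of Nr4a1, Nr4a2 and Nr4a3 each held 4 CRE half-sites. That number was reached or passed in 0.137% of the 32851 windows of this length, while 17.8% held at least 1. The cut of 4 was taken from these 3 windows. Their GC content was 74.4%, 80% and 63.6%, and the share was not matched for it. None of the 3 held a full CRE (in 1.55% of all windows) or a CArG box (in 1.47%). Other motifs were also searched. Nr4a2 held 1 MEF2 site and 1 EGR site, Nr4a1 held 1 EGR site and 0 MEF2 sites, and Nr4a3 held 0 of either. The Egr2 stretch lies before its annotated start 3. The windows of starts 3, 4 and 5, which overlap, each held 2 CRE half-sites and 1 CArG box, while that of start 2 held 0 half-sites and 1 CArG box and that of start 1 held 0 of either. By comparison, 3.90% of all windows held at least 2 half-sites. A match is a description of the letters, not evidence of binding.

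The Rad21 KO libraries held 9384505 and 6914654 counts, against 6633506 and 6500819 counts for WT. Lars2, a mitochondrial tRNA synthetase gene, and Gm15564 together took 34.5% and 12.6% of the counts in the Rad21 KO libraries, against 5.84% and 7.47% in the WT libraries. Levels are therefore given in CPM (a gene's count divided by a library size that edgeR's TMM factors adjust), and a count of 3 corresponded to 0.410 to 0.417 CPM. Rad21 itself fell to 67.9 and 65.7 CPM in the Rad21 KO libraries, against 271 and 233 CPM in the WT libraries (log2 fold change -1.91, SE 0.11, edgeR adjusted p = 0.000862, from its quasi-likelihood fit). Of the 12003 genes tested, 12.8% passed an adjusted p of 0.05 (7.60% higher and 5.17% lower in Rad21 KO cells). Without WT replicate 2 the number of genes called was 947, against 1533 with all 4 libraries.

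The 3 Nr4a genes rose in Rad21 KO thymocytes, Egr1 rose with a smaller fitted change, Egr3 did not pass the threshold, and Egr2 was low in 1 Rad21 KO library. So 4 of the 6 genes were called higher and 0 lower, with a median log2 fold change of 1.75 over the 6, beside -0.01 over all genes tested. The libraries of the 2 genotypes did not overlap for any of the 6 genes, which was also so for 58.9% of all genes tested.

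**Figure D1:**
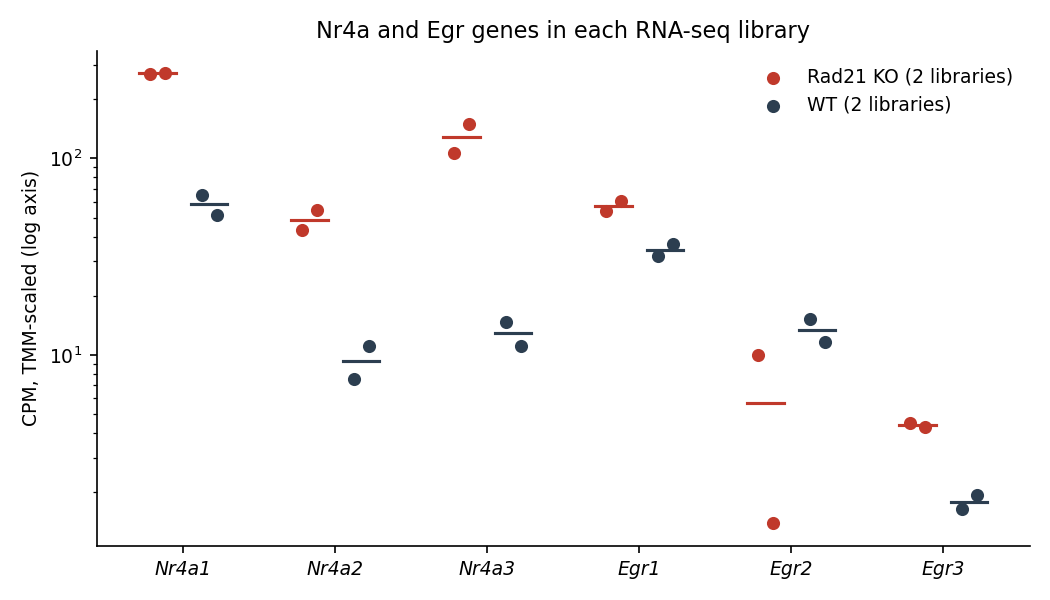
CPM (log axis) of the 6 genes in each library, with Rad21 KO in red and WT in dark blue, and a bar at each group mean (n = 2). The Nr4a genes lie far apart between genotypes, whereas the Rad21 KO libraries of Egr2 stand at 9.99 and 1.39 CPM.

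Nr4a3 (ENSMUSG00000028341), also called NOR-1, had the largest rise of the 6. Its level was 107 and 150 CPM in the Rad21 KO libraries, against 14.6 and 11.1 CPM in the WT replicates. Both Rad21 KO libraries were above both WT libraries, and the distance between the groups exceeded the spread within either. The fold change was 9.96 (log2 fold change 3.32, SE 0.21, 95% interval 2.82 to 3.82, edgeR adjusted p = 0.000882). Nr4a3 ranked 28 among all genes tested by the size of its log2 fold change upwards.

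Nr4a1 (ENSMUSG00000023034), the family member most used as a marker of antigen receptor signals, had 270 and 271 CPM in the Rad21 KO libraries, against 65.0 and 51.7 CPM in the WT libraries. The Rad21 KO libraries were almost equal, at a ratio of 0.994, and both exceeded the higher WT library. The log2 fold change was 2.21 (SE 0.13, 95% interval 1.91 to 2.52, edgeR adjusted p = 0.000862), or 4.64-fold.

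Nr4a2 (ENSMUSG00000026826), known as Nurr1 and best studied in dopamine neurons, was counted at 43.1 and 54.3 CPM in Rad21 KO cells, against 7.52 and 11.1 CPM in WT cells. Its Rad21 KO libraries were again both above the WT libraries. The log2 fold change was 2.39 (SE 0.23, 95% interval 1.86 to 2.92, edgeR adjusted p = 0.00201). RefSeq lists a further gene, LOC105244150, that overlaps Nr4a2, and since the use of strand in the counting is not given in the sources used here, reads of the overlap cannot be told apart.

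Summed over the family, Nr4a genes reached 420 and 475 CPM in the Rad21 KO libraries, against 87.2 and 73.8 CPM in the WT libraries. The share of Nr4a3 in this sum was higher in both Rad21 KO libraries. It was 25.5% (95% Wilson interval 23.9 to 27.0) and 31.5% (29.9 to 33.0) in Rad21 KO replicates 1 and 2, against 16.8% (14.1 to 19.9) and 15.0% (12.2 to 18.3) in the WT replicates. These intervals cover counting error only, and no test of the shares was made over the 2 libraries per group. The share of Nr4a1 was 64.3% and 57.1% in Rad21 KO cells, against 74.6% and 70.0% in WT cells, while that of Nr4a2 was 10.3% and 11.4%, within the WT values of 8.62% and 15.0%. The shares compare libraries, not genes, since counts were not divided by transcript length.

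Egr1 (ENSMUSG00000038418), the founding member of its family and an ERK and SRF target, rose with a smaller fitted change than the Nr4a genes. It had 53.8 and 60.7 CPM in Rad21 KO cells, against 31.7 and 36.7 CPM in WT cells. The groups did not overlap, with a log2 fold change of 0.74 (SE 0.14, 95% interval 0.41 to 1.08, edgeR adjusted p = 0.0192). The upper bound of this interval lies below the lower bounds of Nr4a1, Nr4a2 and Nr4a3, though the difference between genes was not tested. Its call was lost without WT replicate 1 (log2 fold change 0.64, adjusted p = 0.0669 by edgeR) and with no filter on low counts (0.74, adjusted p = 0.0707 by edgeR).

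Egr3 (ENSMUSG00000033730), which promotes proliferation and survival after the pre-T cell receptor signal, was scarce. It had 33 and 31 counts in the Rad21 KO libraries, against 12 and 14 in the WT libraries, or 4.52 and 4.31 CPM in Rad21 KO cells, against 1.64 and 1.94 CPM in WT cells. The ratio of the summed counts, scaled for library size, was 2.47 with a 95% counting interval of 1.54 to 4.06. The log2 fold change of 1.29 (SE 0.36, 95% interval 0.44 to 2.15) did not pass the threshold (edgeR adjusted p = 0.0588).

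Egr2 (ENSMUSG00000037868), which with Egr3 restrains T cell activation and supports selection, was the one gene of the 6 with a negative fitted change, and its Rad21 KO libraries disagreed. It was counted 73 times in Rad21 KO replicate 1 and 10 times in replicate 2, against 111 and 84 times in the WT libraries, or 9.99 and 1.39 CPM in Rad21 KO cells, against 15.2 and 11.6 CPM in WT cells. Rad21 KO replicate 1 was thus close to the lower WT library and replicate 2 far below it, a 7.19-fold gap between the knockout libraries. Only 0.275% of all genes tested had a gap at least as large between the Rad21 KO libraries on the log2(CPM + 1) scale. The log2 fold change was -1.23 (SE 0.66, 95% interval -2.78 to 0.32) and did not pass the threshold (edgeR adjusted p = 0.266). Without Rad21 KO replicate 1 it was -3.24 and passed (adjusted p = 0.00268 by edgeR), and without Rad21 KO replicate 2 it was -0.41 (adjusted p = 0.355 by edgeR), so the value rests on which library is kept. The RefSeq gene Gm32255 overlaps Egr2, so its counts carry the same reservation as those of Nr4a2.

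The Egr family sum was 68.3 and 66.4 CPM in the Rad21 KO libraries, against 48.5 and 50.3 CPM in the WT libraries. Egr1 made up 78.8% and 91.4% of it in Rad21 KO cells, against 65.4% and 73.0% in WT cells. The share of Egr2 was 14.6% (95% Wilson interval 11.8 to 18.0) and 2.09% (1.14 to 3.81) in Rad21 KO replicates 1 and 2, against 31.3% (26.7 to 36.3) and 23.1% (19.1 to 27.7) in the WT replicates, below both WT libraries in each.

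**Figure D2:**
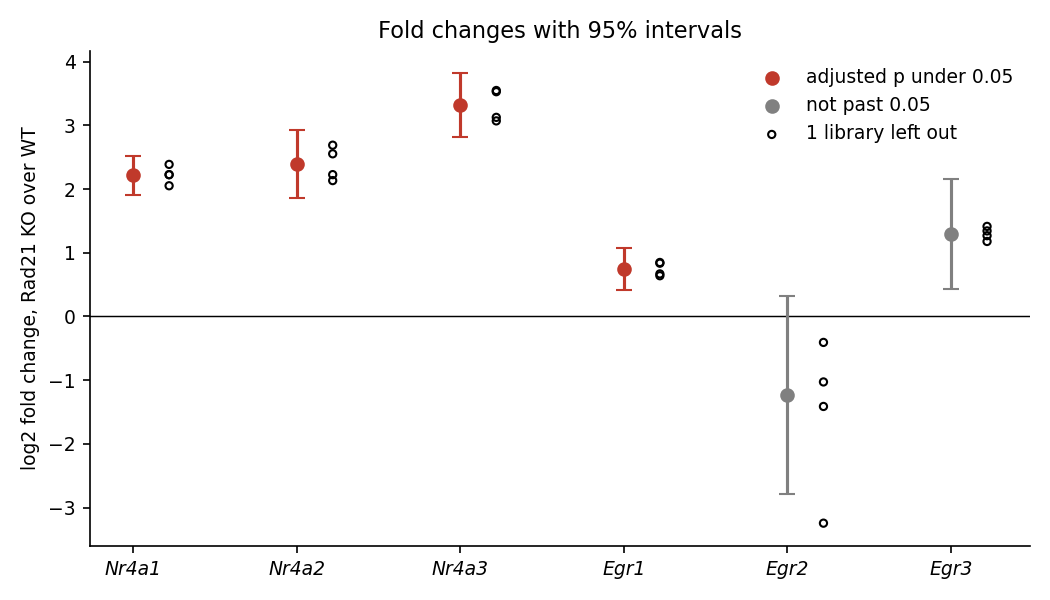
Fitted log2 fold change of Rad21 KO over WT with its 95% interval (filled points) and the value with each library left out in turn (open points). Values for the Nr4a genes stay between 2.05 and 3.55 with a library left out, whereas those of Egr2 run between -3.24 and -0.41.

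The profiles most like each gene's were found by the Euclidean distance between centred log2(CPM + 1) values over the 4 libraries, among genes averaging 5 CPM or more. Nearest to Nr4a3 were Hspa1a, an inducible chaperone gene, at a distance of 0.282, the AP-1 subunit gene Fosl2 at 0.369 and the stress response gene Gadd45b at 0.437. Fosl2 had 22.9 and 46.7 CPM in Rad21 KO cells, against 3.28 and 2.22 CPM in WT cells. All 3, like Nr4a3, were higher in Rad21 KO replicate 2 than in replicate 1. They were chosen for likeness over these same libraries, so this shared order is not a separate result. Hspa1a has a near-identical copy, so its counts are uncertain. Nearest to Nr4a1 were the clock repressor gene Nr1d2 (0.128), the integrin gene Itgb7 (0.205) and the ETS factor gene Spib (0.215). Nr1d2 stood at 222 and 217 CPM in Rad21 KO cells, against 47.4 and 41.5 CPM in WT cells. Nearest to Nr4a2 were Dpf1 (0.107), Rnf39 (0.212) and Rgs16 (0.266), the last a regulator of G protein signalling. Egr1 lay nearest to the condensin gene Smc2 (0.0449), Slain1os (0.0484) and Plbd2 (0.0510), and Egr3 to Aff1 (0.0428), Fabp5 (0.0624) and Siah2 (0.0716).

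The profiles nearest to Egr2 were farther away, those of Lrrc61 (0.516), the glycosyltransferase gene Galnt2 (0.608) and Als2cl (0.645). Galnt2 had 57.9 and 6.12 CPM in Rad21 KO replicates 1 and 2, against 69.0 and 49.6 CPM in the WT replicates. Lrrc61 had 35.7 and 7.51 CPM in Rad21 KO cells, against 35.1 and 37.3 CPM in WT cells. In both genes Rad21 KO replicate 1 lay between the WT values, where Egr2 was just below them, and replicate 2 stood apart from the other libraries. Als2cl differed, with 80.1 and 25.3 CPM in Rad21 KO cells, against 171 and 173 CPM in WT cells. Both of its Rad21 KO libraries were far below WT, and it was called lower (-1.70, SE 0.43, edgeR adjusted p = 0.046), a call lost in DESeq2 and with no filter on low counts.

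**Figure D3:**
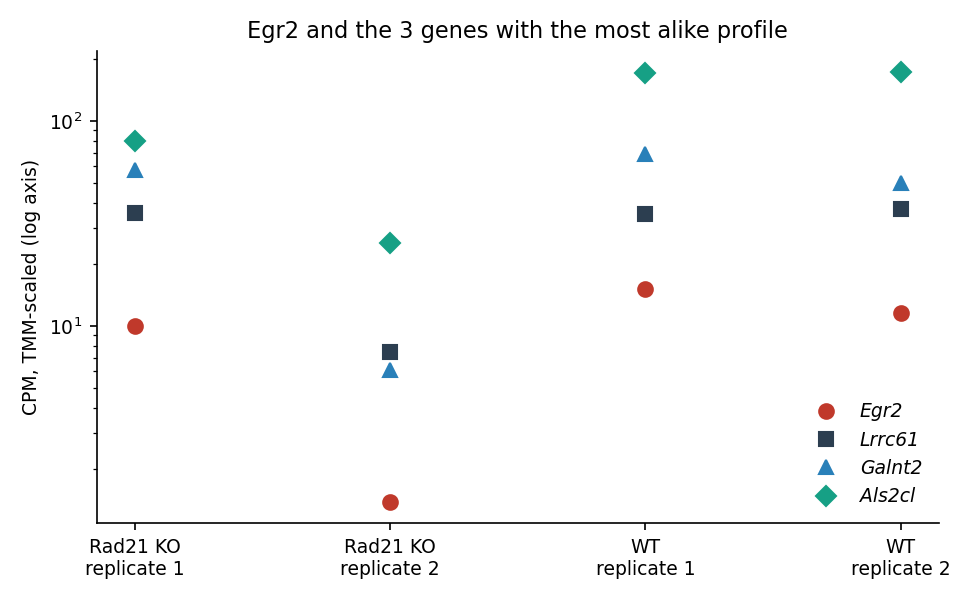
CPM (log axis) of Egr2 and of the 3 genes with the most alike profile in each of the 4 libraries. All 4 genes are lowest in Rad21 KO replicate 2, where Egr2 has 1.39 CPM and Galnt2 6.12 CPM. The 3 genes were chosen for likeness to Egr2 over these same libraries.

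Cohesin loops bring distant DNA into contact, so genes beside the 6 were examined. By gene order in RefSeq (GRCm38), the nearest protein-coding gene on each side gave 12 neighbours. Of these, 8 were tested, with 2 called higher, 1 lower and 5 not called. Among all genes tested, 7.60% were called higher and 5.17% lower. Beside Nr4a1, Grasp, a scaffold protein gene, rose, with 15.5 and 23.8 CPM in Rad21 KO cells, against 5.06 and 7.62 CPM in WT cells (log2 fold change 1.63, SE 0.30, adjusted p = 0.0176 by edgeR). On the other side of Nr4a1 the autophagy gene Atg101 had a log2 fold change of 0.26 (SE 0.14, not called). Beside Nr4a3, the autophagy SNARE gene Stx17 fell to 14.0 and 13.8 CPM in Rad21 KO cells, against 23.5 and 24.4 CPM in WT cells (log2 fold change -0.79, SE 0.16, adjusted p = 0.026 by edgeR). Sec61b, a subunit of the protein translocation channel on the other side of Nr4a3, stood at 0.06 on the log2 scale (SE 0.14). The change of Nr4a3 thus stood beside neighbours with a fall and with a value near 0.

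Etf1, a translation termination factor gene next to Egr1, rose by 0.53 on the log2 scale (SE 0.12, edgeR adjusted p = 0.03). Next to Egr2, Nrbf2 stood at 0.47 on the log2 scale (SE 0.16) and Ado at 0.07 (SE 0.14), neither called, and both were at similar levels in the 2 Rad21 KO libraries. Nrbf2 had 31.5 and 33.5 CPM in Rad21 KO cells, against 25.7 and 21.3 CPM in WT cells. Bin3, next to Egr3, stood at -0.27 (SE 0.13, not called). Kcnj3 and Gm52512 beside Nr4a2 were not found by symbol among the counted genes, so Nr4a2 had no measured neighbour. Reep2 beside Egr1 and Pebp4 beside Egr3 were too scarce to test. The calls of all 3 were lost with no filter on low counts, that of Stx17 also in DESeq2 and without WT replicate 1 (-0.82) or 2 (-0.77), and that of Etf1 without Rad21 KO replicate 2 (0.44), without WT replicate 2 (0.45) or with the replicate number as a block (0.53, adjusted p = 0.0598 by edgeR).

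**Figure D4:**
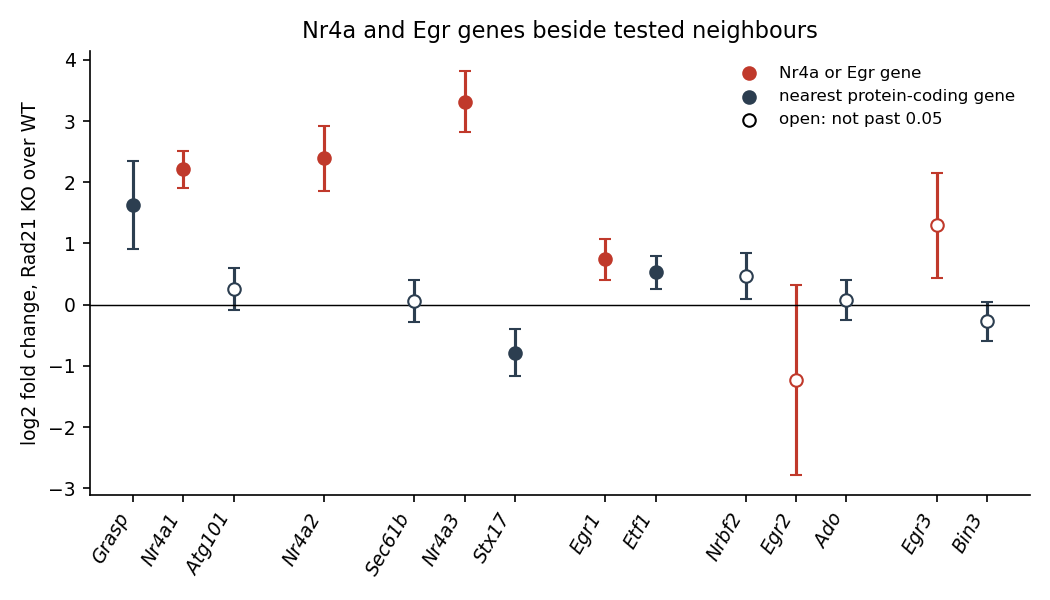
Fitted log2 fold change of Rad21 KO over WT with 95% intervals for the 6 genes (red) and their tested neighbours (dark blue), grouped by locus in RefSeq order, filled where the adjusted p was under 0.05. Nr4a3 at 3.32 stands beside Sec61b at 0.06 and Stx17 at -0.79.

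The cofactors of these proteins did not move past the threshold. Of 7 relatives and cofactors listed, 4 were tested and 0 were called in either direction, with a median log2 fold change of -0.04. Nab2, a corepressor of EGR proteins that is itself induced with them, had 25.7 and 31.1 CPM in Rad21 KO cells, against 42.8 and 41.1 CPM in WT cells (log2 fold change -0.56, SE 0.15, adjusted p = 0.0533 by edgeR). Its value had the opposite sign to that of Egr1, and it passed the threshold without Rad21 KO replicate 2 (-0.69, adjusted p = 0.0328 by edgeR). The other corepressor gene, Nab1, stood at 0.06 (SE 0.14) and Rxrb, a retinoid X receptor, at -0.14 (SE 0.12). The fourth member of the family, Egr4, was too scarce to test, with 0 and 3 counts in Rad21 KO libraries, against 1 and 0 in WT libraries.

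Genes that carry the T cell receptor signal towards these promoters changed in both directions. Of 29 tested, 6 were higher, 4 lower and 19 not called, and their median stood at 0.05 on the log2 scale. The 10 calls became 5 (4 higher, 1 lower) without Rad21 KO replicate 2, 6 (4 higher, 2 lower) without WT replicate 1, without WT replicate 2 or with the replicate block, and 4 (3 higher, 1 lower) with no filter on low counts. Nfatc2, a calcium-dependent transcription factor gene, had the largest rise of the list, to 59.8 and 41.0 CPM in Rad21 KO cells, against 7.52 and 9.97 CPM in WT cells (log2 fold change 2.53, SE 0.24). Mef2d, whose product binds the Nr4a1 promoter, rose to 753 and 747 CPM, against 391 and 366 CPM in WT cells (0.99, SE 0.10, adjusted p = 0.00259 by edgeR). Crem, a CRE-binding factor gene that also yields repressor forms, rose by 1.13 (SE 0.21), Nfatc1 by 0.67 (SE 0.11) and the calcineurin subunit gene Ppp3ca by 0.70 (SE 0.16). The call of Crem was lost with no filter on low counts, and that of Ppp3ca in 6 of 10 alternatives. Some relatives of these genes were called in either direction, and are named after their values were seen. Atf1, another CREB family gene, was called higher (0.53, SE 0.12, edgeR adjusted p = 0.0322), a call lost with no filter on low counts. Called lower were Creb1 (-0.64, SE 0.17, edgeR adjusted p = 0.0488), Mef2a (-0.54, SE 0.14, edgeR adjusted p = 0.0445) and the calcineurin subunit gene Ppp3cb (-0.53, SE 0.12, edgeR adjusted p = 0.0377). All 3 of these calls were lost without Rad21 KO replicate 2 and with no filter.

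Rasgrp1, the exchange factor gene that links the receptor to Ras and ERK, fell to 482 and 413 CPM in Rad21 KO cells, against 1074 and 1132 CPM in WT cells (log2 fold change -1.30, SE 0.12, adjusted p = 0.00188 by edgeR). The list members downstream of it on the ERK branch were not called. Among those, chosen after their values were seen, Map2k1 stood at 0.11 (SE 0.15) and Srf at 0.14 (SE 0.18). The repressor of Nr4a1 in thymocytes, Hdac7, had 1039 and 712 CPM in Rad21 KO cells, against 758 and 832 CPM in WT cells (0.14, SE 0.18), with overlapping groups. Nfatc3 at -0.31 (SE 0.11) and the kinase gene Prkcq at -0.16 (SE 0.09) were not called either.

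Of 22 other immediate early genes tested, 14 were higher, 1 lower and 7 not called, and their median log2 fold change was 0.71. The AP-1 genes Fosl2 (log2 fold change 3.65, SE 0.44) and Junb (2.12, SE 0.14) rose, and Junb stood at 516 and 643 CPM in Rad21 KO cells, against 146 and 121 CPM in WT cells. Gem, a small GTPase gene, rose by 2.00 (SE 0.27), and Ier2 and Ier5, of little known function, rose by 1.94 (SE 0.20) and 1.44 (SE 0.13). Ier3 had 2.60 and 9.59 CPM in Rad21 KO cells, against 0.547 and 0 CPM in WT cells, and it no longer passed without Rad21 KO replicate 2, in limma-voom, under the replicate block or when scarce genes were kept in the test. Abundant members that were not called included Btg2 (-0.05, SE 0.12), Klf6 (-0.25, SE 0.13) and the RNA decay factor gene Zfp36 (-0.28, SE 0.13). The 1 member called lower was Fos (-0.53, SE 0.12), named after its value was seen, and 0 members were called lower without Rad21 KO replicate 1, without WT replicate 2 or with no filter on low counts. With no filter 8 members were called higher.

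Of 20 tested genes known to be induced by T cell receptor signals in the thymus, 7 were higher, 4 lower and 9 not called, with a median log2 fold change of 0.54. With no filter on low counts 3 were higher and 2 lower. Gadd45b rose to 27.7 and 50.9 CPM in Rad21 KO cells, against 5.19 and 3.46 CPM in WT cells (log2 fold change 3.17, SE 0.36). The transcription factor gene Irf4 rose by 2.51 (SE 0.29), Ndrg1 by 2.07 (SE 0.22), the NF-kB subunit gene Rel by 1.70 (SE 0.24) and the NF-kB regulator gene Nfkbid by 1.32 (SE 0.22), the last 2 with their calls lost when no filter on low counts was used. Ikzf2, which encodes Helios and marks strongly signalled thymocytes, fell to 102 and 114 CPM, against 258 and 240 CPM in WT cells (-1.20, SE 0.11, adjusted p = 0.00171 by edgeR). The remaining called genes are named after their values were seen. Tox (-1.20, SE 0.10), Tnfrsf18 (-0.90, SE 0.18) and Cd5 (-0.42, SE 0.10) were lower. Bcl2l11 (0.88, SE 0.16) and Cd28 (0.51, SE 0.11) were higher. Cd69, the usual surface marker of a recent receptor signal, had 141 and 193 CPM in Rad21 KO cells, against 111 and 116 CPM in WT cells, and was not called (0.56, SE 0.15, adjusted p = 0.0588 by edgeR), although it passed in DESeq2 and without Rad21 KO replicate 1 (0.77). Id3, an EGR target in thymocytes, stood at -0.12 (SE 0.16) and the ubiquitin ligase gene Cblb at 0.19 (SE 0.14). The call shares of the lists can be read against 7.60% higher and 5.17% lower among all genes tested. The lists were chosen with earlier results of these data known, so their shares are not those of unselected genes.

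**Figure D5:**
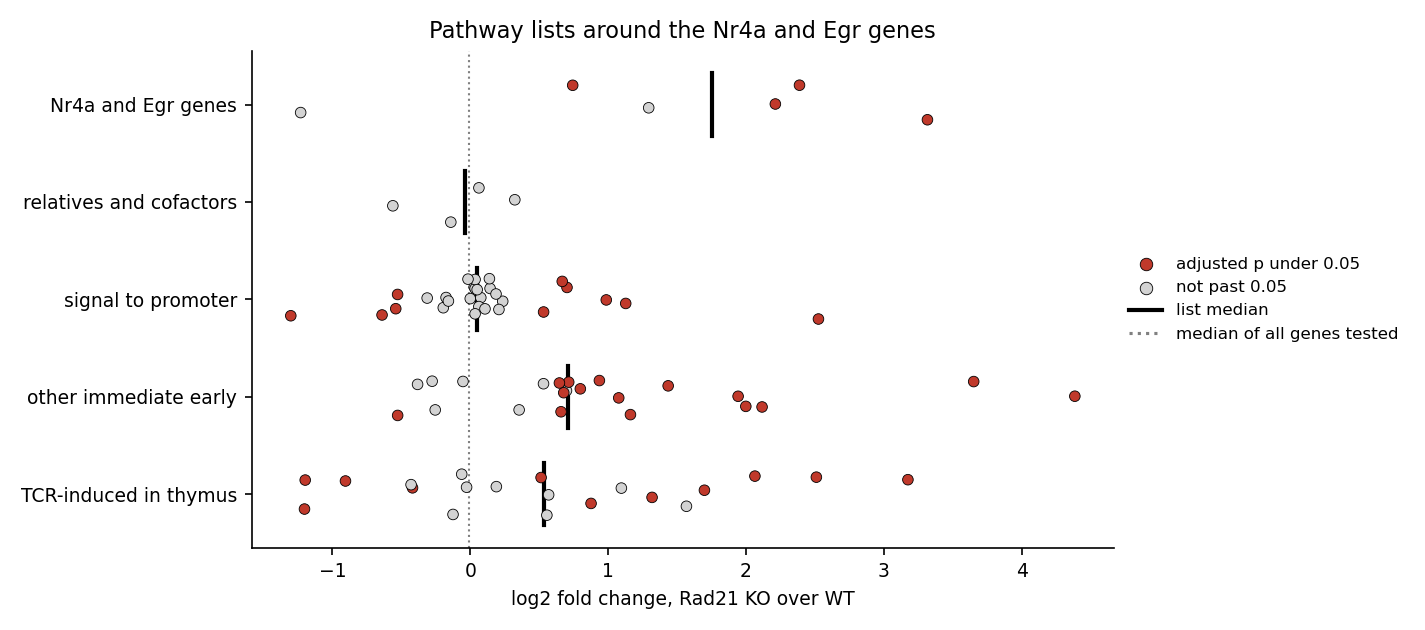
Log2 fold change of Rad21 KO over WT for each tested member of the Nr4a and Egr genes and of 4 pathway lists, red where the adjusted p was under 0.05, with a bar at each list's median and a dotted line at the median of all genes tested. The other immediate early genes lie mostly to the right (median 0.71), while the genes that carry the signal to the promoter centre on 0.05.

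Markers of the cells were read beside these results, since in bulk RNA fewer cells of a type and less RNA per cell cannot be told apart. Of 8 double-positive thymocyte markers, 3 were lower and 0 higher, and their summed level was 9543 and 8330 CPM in Rad21 KO cells, against 13586 and 12363 CPM in WT cells. The log2 fold changes were -0.96 (SE 0.11) for Themis, -0.73 (SE 0.16) for Rag1 and -0.79 (SE 0.14) for Rag2, all called, while Cd4 (-0.48, SE 0.15) and Cd8a (-0.34, SE 0.13) did not pass. The call of Rag1 was lost without Rad21 KO replicate 2, without WT replicate 1, with no filter and under the replicate block, and that of Rag2 with no filter. Of 4 tested markers of mature single-positive T cells, 2 were higher and 1 lower, the lower call being lost in 5 of 10 alternatives. Ccr7 rose by 3.03 (SE 0.20) and Klf2 by 1.13 (SE 0.16) on the log2 scale, and the 5 listed markers had a summed level of 192 and 169 CPM in Rad21 KO cells, against 156 and 159 CPM in WT cells.

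Markers of other cell types had summed levels far below those of the double-positive thymocyte markers. Some of these sums still exceeded the CPM of Egr2 and Egr3 in the same libraries. Summed levels were 13.3 and 13.3 CPM in Rad21 KO cells, against 18.2 and 14.8 CPM in WT cells, for 5 B cell genes. For 7 myeloid genes, of which Itgam fell (-1.29, SE 0.22, a call lost without WT replicate 2 and with no filter), they were 17.5 and 23.5 CPM in Rad21 KO cells, against 30.7 and 35.5 CPM in WT cells. Itgam was the most abundant of the 7, at 8.35 and 8.62 CPM in Rad21 KO cells, against 17.5 and 24.0 CPM in WT cells. The other tested myeloid genes were not called and went both ways. They were Lyz2 (0.34, SE 0.49), Mpeg1 (0.34, SE 0.47), Csf1r (-0.26, SE 0.39) and Cd68 (-0.55, SE 0.38). For 3 NK cell genes the summed levels were 6.02 and 5.28 CPM in Rad21 KO cells, against 7.65 and 4.85 CPM in WT cells. For 3 erythroid genes they were 2.05 and 4.03 CPM in Rad21 KO cells, against 3.28 and 3.05 CPM in WT cells. For 5 thymic epithelial genes they were 24.6 and 28.6 CPM in Rad21 KO cells, against 17.8 and 17.3 CPM in WT cells, with Epcam higher (3.08, SE 0.38) and the defining gene Foxn1 at 1 and 0 counts, against 2 and 0 in WT cells. Psmb11, the most abundant of the 5, had 14.9 and 16.3 CPM in Rad21 KO cells, against 15.0 and 15.5 CPM in WT cells (0.03, SE 0.18, not called). Krt5 and Krt8 were too scarce to test. The part of the thymocyte markers, and of the share of Lars2 and Gm15564, in the rise of the Nr4a genes was not tested. With Lars2 and Gm15564 left out of the totals, the log2 fold changes were 2.20 for Nr4a1, 2.38 for Nr4a2, 3.31 for Nr4a3 and 0.73 for Egr1.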

How the data were processed

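RNA was measured in 2 Rad21 KO and 2 WT libraries of sorted thymocytes. The authors deposited what they call count equivalents, whole numbers for each Ensembl gene that were treated as estimated counts. Per the submitters' processing notes they used mm9. Neither aligner nor counter nor strand handling is given in the sources used here, and 0 columns of samples went unused. Headers of the knockout columns lack a digit of the gene's name and were assigned from what remains. Symbols were found for 17342 of 17849 identifiers.

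The test was edgeR 4.0.16 under R 4.3.3 (genes kept by filterByExpr, TMM scaling, two-sided quasi-likelihood test of genotype over all genes, no block, Benjamini-Hochberg threshold 0.05). Standard errors are Wald errors of that fit, and 95% intervals use its 7.09 degrees of freedom. Wilson and exact binomial intervals cover counting error only. Alternatives were DESeq2 1.42.0, limma-voom (limma 3.58.1), DESeq2's size factors in edgeR, no filter, each library left out, a replicate block, and totals without Lars2 and Gm15564.

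The members and gene lists were chosen with earlier results of these data known. Named are all 6 members, Rad21, per list up to 6 called genes by size of change and up to 3 others by abundance, the 3 most alike profiles per member, and the nearest protein-coding neighbours. Replicate libraries differed by more than sampling noise (chi-square per degree of freedom 85.9 for the Rad21 KO pair and 7.43 for the WT pair). These 2 values use raw counts and raw totals with Lars2 and Gm15564 included, which took 34.5% and 12.6% of the Rad21 KO counts. They therefore do not measure the spread of TMM-scaled levels, and the 2 pairs cannot be ranked by them. Promoter sequences are from RefSeq (GRCm38.p6). The ChIP-seq peak lists are positions on mm9, for which no gene annotation was used here, so peaks near the 6 genes were not analysed here. Single values of a few listed genes are not reported here.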

Additional observations from a re-analysis of the deposited data

How the results depend on the processing

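Nr4a1, Nr4a2 and Nr4a3 kept their direction and passed the threshold in all 10 alternatives, with log2 fold changes of 2.05 to 2.39, 2.13 to 2.69 and 3.07 to 3.55. Egr1 passed in 8 of 10 (0.64 to 0.85). Egr3 passed in 0 of 10 (1.18 to 1.41), and Egr2 in 1 of 10, without Rad21 KO replicate 1 (-3.24). The number of the 6 genes called was 3 to 5 with a library left out and 3 with no filter on low counts. With no filter, calls over the 4 pathway lists dropped to 17, against 36, and over all genes to 433, against 1533, with more genes tested (17003 against 12003). Leaving out a library gave 28 to 33 calls in the lists and 947 to 1438 over all genes. With a library left out, 1 group has a single library, which is assumed to vary like the others. The titles share replicate numbers between genotypes, and same-numbered libraries showed little common deviation (r = 0.04 across genes). With 2 libraries per group this cannot settle whether they were paired, and the labels do not say. The fit with the replicate block called 4 of the 6 genes, 30 list genes and 1025 genes in all. Precision is limited by 2 libraries per group, for Egr3 also by low counts and for Egr2 by the disagreement of its Rad21 KO libraries. The planned placing of peaks near the 6 genes was not run.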
